A study of Mus with 8 samples.

Results

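The estrogen-related receptors, their coactivator Ppargc1b and the regulator Perm1 were followed on 8 expression arrays of mouse brown adipose tissue, the heat-producing fat between the shoulder blades. The genes asked for were Esrra, Esrrb, Esrrg, Ppargc1b and Perm1, chosen by name with earlier results of these arrays known. Of these 5 genes, 4 had a probe set annotated with that gene alone, among 30723 genes measured in this way. Esrra had none, because its probe set also carries the name of the microRNA gene Mir6990, and the values of that shared probe set are given separately. The comparison asked how loss of Hilpda, which encodes a lipid droplet protein known to inhibit adipose triglyceride lipase, goes with transcript levels in brown fat. The groups were 4 mice labelled HILPDA KO and 4 labelled wild type (WT), with 1 array each, all C57BL/6 and labelled female. The labels give no Cre driver, age or treatment.

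Estrogen-related receptors (ERR alpha, beta and gamma, encoded by Esrra, Esrrb and Esrrg) are orphan nuclear receptors that switch on genes of fatty acid oxidation, the TCA cycle and the respiratory chain. They depend on coactivators of the PGC-1 family, encoded by Ppargc1a and Ppargc1b. Perm1 is known from muscle as a gene that PGC-1 and ERR induce and that in turn raises mitochondrial genes. In brown fat these receptors are known to be needed for a full mitochondrial content and thermogenic response.

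The arrays formed 2 sets with separate value distributions, a split not found in the labels. Set 1 held replicates 1 and 2 of each genotype, with a median gene value of 3.92 to 3.99 on the log2 scale, and set 2 held replicates 3 and 4, with a median of 4.92 to 4.96. KO is therefore compared with WT within a set, with 2 arrays against 2, or with the set as a term in the fit, and levels are not compared between sets. Hilpda stood at 4.45 and 4.37 (KO) and 4.37 and 4.28 (WT) in set 1, and at 5.60 and 5.51 (KO) and 6.00 and 5.92 (WT) in set 2. Both KO arrays were below both WT arrays in set 2 only, by 0.40 (1.32-fold), a separation that 19.1% of all genes had there. The targeted gene thus does not check the labels in set 1 and is a weak check in set 2. Directions below refer to arrays labelled KO. The brown fat marker Ucp1 was at or near the highest value of every array (19.68 to 19.93). Xist, a transcript of female cells, read 3.49 to 4.10, whereas the Y-linked gene Uty read 9.31 to 10.93, so none of the 8 arrays matched its female label.

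The members were chosen with the KO and WT values known, so their differences are described without a test. In set 1, 3 of the 4 members (Ppargc1b, Esrrg and Esrrb) had both KO arrays below both WT arrays, as had 19.4% of all genes there. The remaining member, Perm1, had both KO arrays above in that set, as had 18.9%. Of these members Esrrb was not above background, as given below. In set 2, 1 member (Perm1) had both KO arrays below, as had 19.1% of all genes, and the other 3 overlapped. The plot of members by array shows these values.

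**Figure D1:**
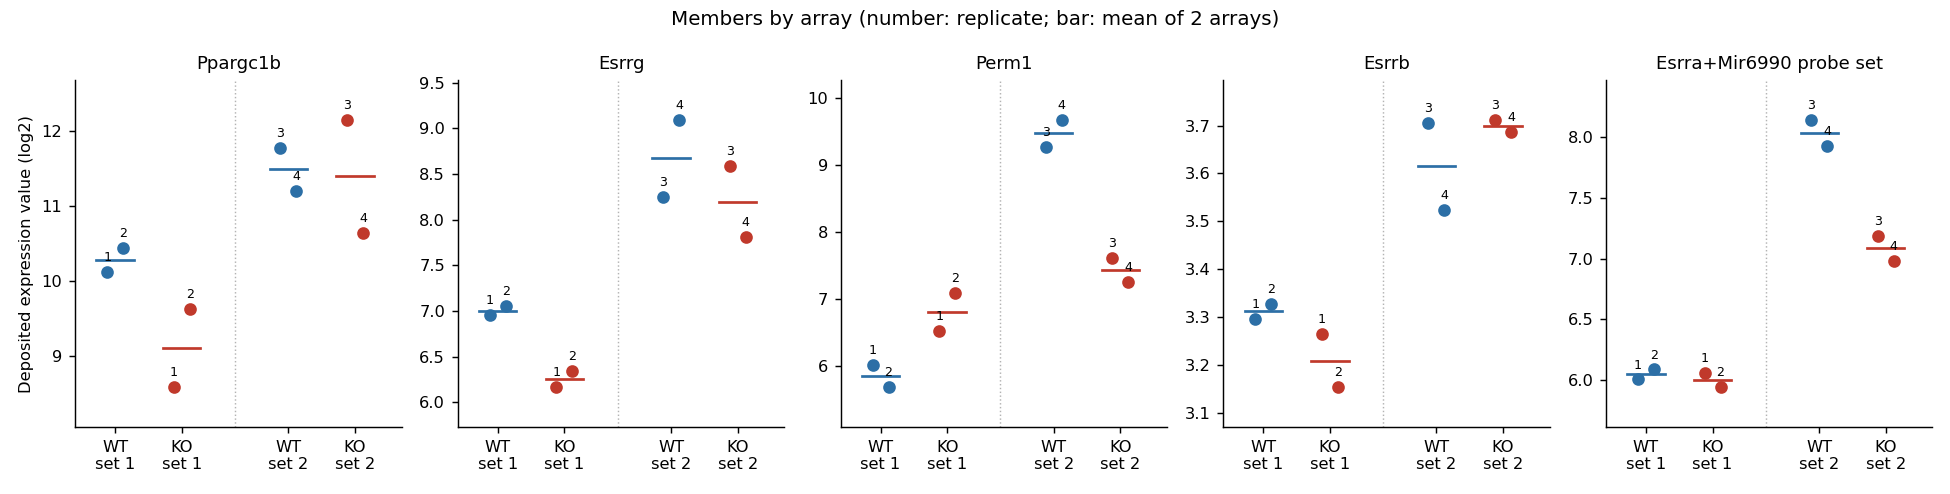
Deposited log2 value (y axis) of each member on each array, by genotype and set (x axis). Points are arrays with the replicate number, and bars are means of 2 arrays. Perm1 was higher in KO in set 1 and lower in KO in set 2, and Ppargc1b and Esrrg were lower in KO in set 1.

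Esrrg encodes ERR gamma, the receptor of the family linked to highly oxidative tissues. It read 6.17 and 6.35 in the KO arrays and 6.96 and 7.06 in the WT arrays of set 1. In set 2 it read 8.59 and 7.81 in KO and 8.25 and 9.09 in WT. Both KO arrays were thus low in set 1, by 0.75 on average (a 1.68-fold lower level), where arrays of the same genotype lay 0.18 (KO) and 0.10 (WT) apart. The set 2 groups overlapped, with a difference of -0.47 beside gaps of 0.78 and 0.84 between arrays of a genotype. Without WT replicate 4 the set 2 difference was -0.05, and without WT replicate 3 it was -0.89. Over all arrays Esrrg was at 7.23 ± 1.17 in KO and 7.84 ± 1.02 in WT (SD, n = 4 each, a spread that holds the set difference), a difference of -0.61.

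Esrrb encodes ERR beta, known from embryonic stem cells, placenta and inner ear. It read 3.26 and 3.15 in KO and 3.30 and 3.33 in WT in set 1, and 3.71 and 3.69 in KO and 3.71 and 3.52 in WT in set 2. On every array this lay below the 95th percentile of 1076 olfactory receptor genes, a group of mostly low signal, between their 23.5th and 59.3rd percentile. Its signal was thus not above background, and its differences of -0.10 in set 1 and 0.08 in set 2 are not read as a level of Esrrb transcripts. Ppargc1b, Esrrg and Perm1 were above that 95th percentile on all 8 arrays.

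Esrra encodes ERR alpha, the receptor of the family that PGC-1 coactivators induce and bind. The probe set annotated with both Esrra and Mir6990, whose signals cannot be separated, read 6.05 and 5.94 in KO and 6.00 and 6.08 in WT in set 1. In set 2 it read 7.19 and 6.98 in KO and 8.14 and 7.93 in WT. The groups overlapped in set 1, with a difference of -0.05. In set 2 both KO arrays were lower, by 0.95 (a 1.93-fold lower level), where arrays of a genotype lay 0.21 (KO) and 0.22 (WT) apart.

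Ppargc1b encodes PGC-1 beta, a coactivator of ERR receptors in mitochondrial gene expression. It read 8.59 and 9.63 in KO and 10.12 and 10.44 in WT in set 1, and 12.15 and 10.64 in KO and 11.78 and 11.20 in WT in set 2. In set 1 both KO arrays were low, by 1.17 on average (2.25-fold), and KO replicate 1 was the lowest of the set. Without KO replicate 1, the array with the highest liver markers, the set 1 difference was -0.65. In set 2 the KO arrays held the highest and the lowest value, 1.51 apart, and the mean difference was -0.10. That value rests on single arrays, since it was 0.66 without KO replicate 4 and -0.85 without KO replicate 3. Over all arrays Ppargc1b was at 10.25 ± 1.52 in KO and 10.89 ± 0.75 in WT (SD, n = 4 each), a difference of -0.63.

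The order of the arrays of set 1 in Ppargc1b and in Esrrg was the reverse of their order in liver markers. The mean of 19 measured liver markers of 20 listed was 10.84 and 7.97 in KO replicates 1 and 2 and 7.75 and 6.12 in WT replicates 1 and 2, and 18 of the 19 were higher in KO in that set. Alb, which encodes the plasma protein albumin, stood at 19.23 and 15.81 in KO and 14.51 and 10.03 in WT. KO replicate 1, with the highest liver values, had the lowest Ppargc1b and Esrrg, and WT replicate 2, with the lowest liver values of the set, had the highest. The mean of 16 brown adipocyte markers was 12.83 and 12.94 in KO replicates 1 and 2 and 13.15 and 13.16 in WT replicates 1 and 2. Of these 16, 7 had a lower and 9 a higher or equal KO mean in set 1 (median difference 0.003, range -4.63 to 1.45). The lowest was Dio2, named after its values were seen, at -4.63 in set 1 and 2.02 in set 2, and it weighs on the mean. Cidea read 18.76 on all 4 arrays of set 1, and Ucp1 read 19.87 to 19.93 there, near the highest value of the arrays. The part of liver RNA in the Ppargc1b and Esrrg differences was not tested. In set 2 the liver mean was 4.91 to 5.15 on all 4 arrays and Alb 4.79 to 5.23, and there Ppargc1b and Esrrg overlapped between the genotypes. In bulk tissue, fewer cells of a type and less RNA per cell cannot be told apart.

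**Figure D2:**
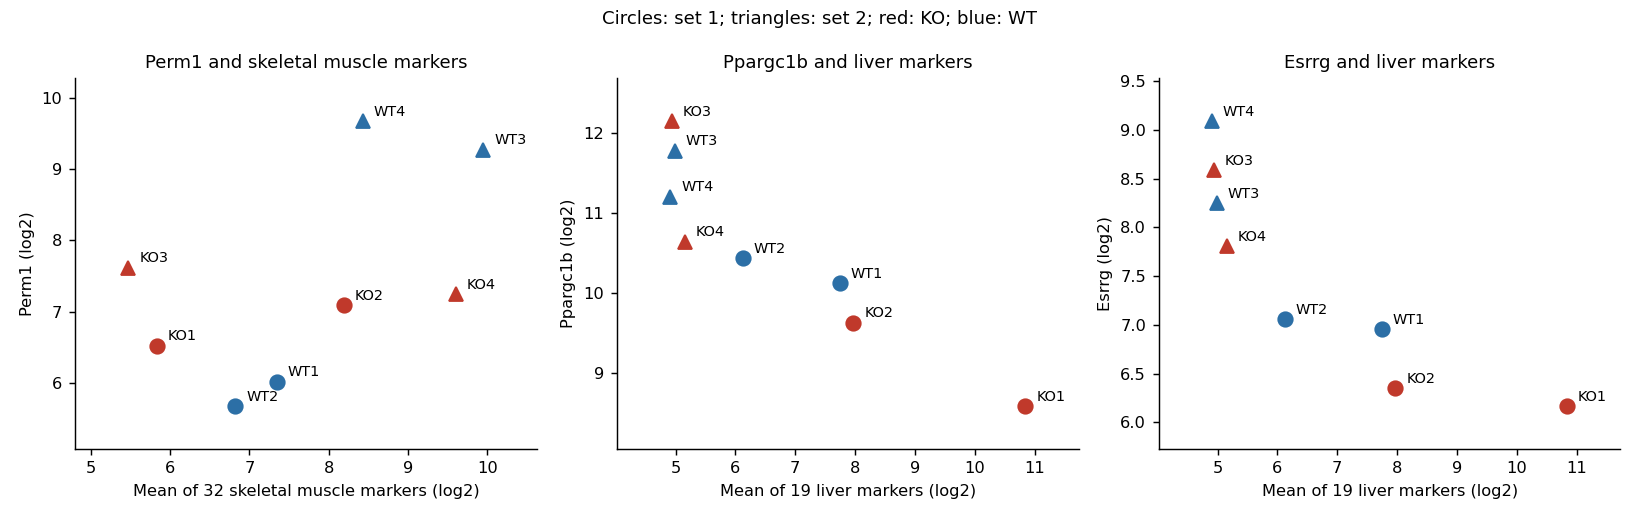
Each point is an array, with set 1 as circles, set 2 as triangles, KO in red and WT in blue. The x axes give the mean log2 value of 32 skeletal muscle or 19 liver markers, and the y axes the log2 value of the member. In set 1 Ppargc1b and Esrrg were lower where liver markers were higher. In set 2 Perm1 read 7.61 in KO replicate 3 (muscle mean 5.47) and 9.27 in WT replicate 3 (muscle mean 9.95). It read 7.25 in KO replicate 4 (muscle mean 9.60) and 9.67 in WT replicate 4 (muscle mean 8.43). The part of muscle or liver RNA was not tested.

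Mir378a, a microRNA gene hosted in an intron of Ppargc1b, has its own probe set. It read 6.26 and 6.87 in KO and 6.82 and 6.61 in WT in set 1, where the groups overlapped. In set 2 it read 9.21 and 8.88 in KO and 9.75 and 9.66 in WT, with both KO arrays lower. The difference was -0.15 in set 1 (limma adjusted p = 0.989) and -0.66 in set 2 (SE 0.22, limma adjusted p = 0.225), so neither passed. Host and hairpin gene thus had their larger difference in different sets, and in KO replicate 3 the host had its highest value of that set while Mir378a was below both WT arrays of the set. The other listed microRNA genes, Mir208b and Mir499, known from muscle myosin genes, read 3.11 to 4.53 and 2.97 to 3.74.

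Ppargc1a, the paralog of Ppargc1b that cold and adrenergic signals induce, was named here after its values were seen. It read 11.17 and 12.51 in KO and 12.14 and 13.38 in WT in set 1, and 15.72 and 15.40 in KO and 14.10 and 14.31 in WT in set 2. The differences were -0.92 (limma adjusted p = 0.788) and 1.36 (SE 0.51, limma adjusted p = 0.284), and their difference between the sets was 2.28 (SE 0.72, limma adjusted p = 0.211). Both KO arrays were above both WT arrays of set 2, while Ppargc1b overlapped there.

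**Figure D3:**
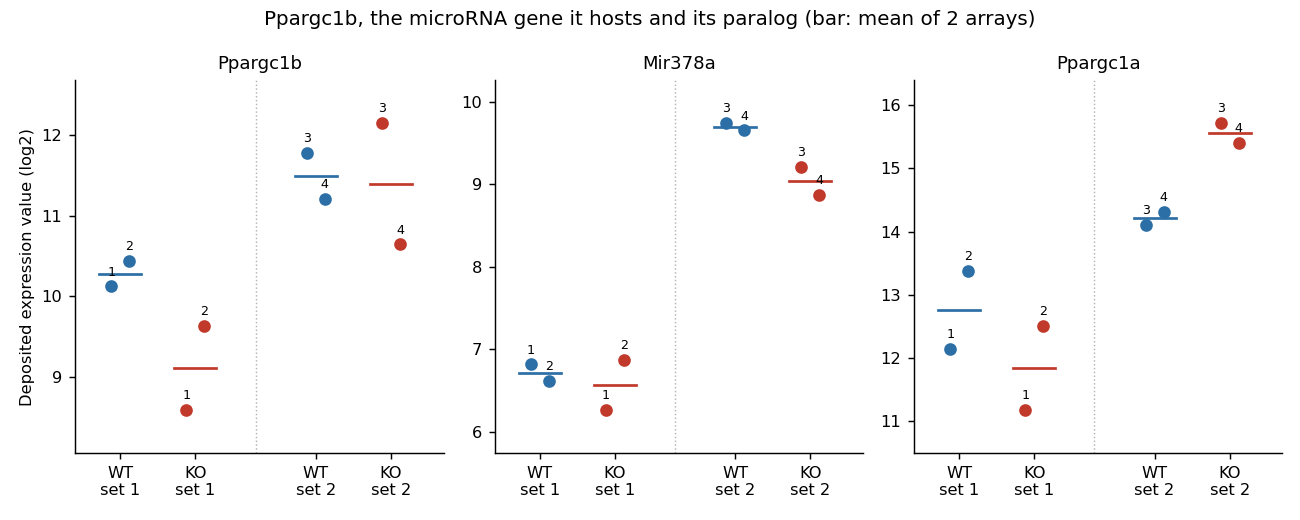
Log2 value (y axis) of Ppargc1b, Mir378a and Ppargc1a on each array by genotype and set (x axis), with replicate numbers, and bars at the mean of 2 arrays. In set 2 the KO arrays were higher for Ppargc1a (15.72 and 15.40) and lower for Mir378a (9.21 and 8.88), and overlapped WT for Ppargc1b.

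Perm1 was the member whose KO and WT arrays parted in both sets, in opposite directions. In set 1 it read 6.52 and 7.09 in KO and 6.02 and 5.68 in WT. In set 2 it read 7.61 and 7.25 in KO and 9.27 and 9.67 in WT. Both KO arrays were higher in set 1, by 0.96 (1.95-fold), and both were lower in set 2, where the difference was -2.04 (4.12-fold). Arrays of the same genotype and set lay 0.34 to 0.57 apart, less than either difference. With any 1 array left out the difference stayed between 0.68 and 1.24 in set 1 and between -2.24 and -1.84 in set 2. Over all arrays the directions offset, with 7.12 ± 0.45 in KO and 7.66 ± 2.11 in WT (SD, n = 4 each). Higher in KO in set 1 and lower in set 2 without overlap were 5.29% of all genes, and the reverse held for 7.4%.

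Perm1 is also abundant in skeletal muscle, so its arrays were set beside 32 muscle markers. Their mean was 5.83 and 8.19 in KO and 7.34 and 6.82 in WT in set 1, and 5.47 and 9.60 in KO and 9.95 and 8.43 in WT in set 2. All 32 markers had a lower KO mean in set 2, whereas 19 were lower and 13 higher in set 1. The 2 KO arrays of set 2 were far apart in muscle markers but 0.37 apart in Perm1. In set 2 the muscle means of KO replicate 4 and of both WT arrays lay above 8, and KO replicate 3 was the lowest, while Perm1 was low in both KO arrays. The part of muscle RNA in the Perm1 differences was not tested. Myh4, a fast muscle myosin, read 6.96 and 15.29 in KO and 15.10 and 13.21 in WT in set 2 (limma adjusted p = 0.67), and Pgam2, a muscle glycolytic enzyme, differed by -1.06 (SE 0.32, limma adjusted p = 0.196).

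Among genes with a mean level above the median of all genes (4.43), those with the array pattern most like Perm1 were Ciart and Lrrc39. Ciart is a repressor of the circadian clock, and Lrrc39 a leucine-rich repeat protein of muscle. Likeness was the mean absolute difference, over 8 arrays, of log2 values centred on the set mean. It was 0.16 for Ciart and 0.21 for Lrrc39, where Perm1 itself deviated from its set mean by 0.75 on average. Ciart read 5.11 and 5.82 in KO and 5.32 and 4.60 in WT in set 1, and 6.92 and 6.58 in KO and 8.38 and 9.15 in WT in set 2. Lrrc39 read 6.17 and 6.53 against 5.78 and 5.63, and 7.76 and 7.06 against 9.20 and 8.94. Among the genes above that median, the closest to Esrrg were the small nucleolar RNA gene Snord14a (0.11) and the predicted gene Gm15576 (0.12), where Esrrg deviated by 0.39. For Ppargc1b no gene above that median came within the limit of 0.33 of its own deviation of 0.55.

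**Figure D4:**
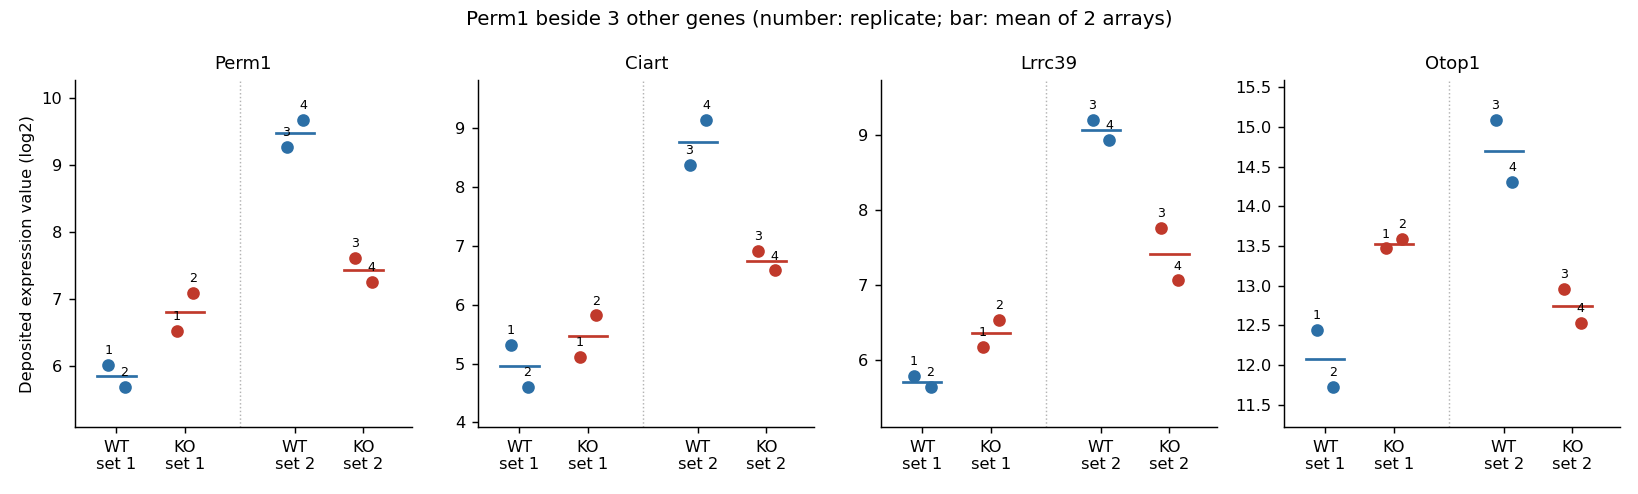
Log2 value (y axis) of Perm1, of Ciart and Lrrc39, whose array patterns were closest to it among genes above the median level, and of Otop1, by genotype and set (x axis). Numbers are replicates and bars are means of 2 arrays. All 4 genes had a higher KO mean in set 1 and a lower KO mean in set 2, where no KO array reached a WT array.

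The remaining genes of the pathway were tested in the fit over all genes. With the set as a term, limma with Benjamini-Hochberg adjustment called 0 of 30723 genes (0%), and 1483 had an unadjusted p under 0.05. Within set 1 it called 0 (0%, with 2377 at an unadjusted p under 0.05). Within set 2 it called 1, Dbp (0.00325%, with 4627 at an unadjusted p under 0.05). The difference of KO minus WT between the sets passed in 153 genes (0.498%). That count rests on the full set of arrays, since it was 0 to 10 with any 1 array left out and 82 after median centring of the arrays.

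Coregulators of ERR receptors had members on both sides. Of 24 measured of 26 listed, 15 had a lower KO mean and 9 a higher KO mean with the set as a term, with a median difference of -0.04 against 0.01 over all genes, and 0 passed (1 at an unadjusted p under 0.05). Lpin1, a phosphatidate phosphatase that also acts as a coactivator with PGC-1 alpha, read 15.35, 15.56, 15.49 and 16.91 in KO and 14.33, 15.08, 15.13 and 15.53 in WT replicates 1 to 4. It differed by 0.81 (SE 0.31, limma adjusted p = 0.983), with both KO arrays above both WT arrays in set 1. Nrip1, a corepressor that restrains oxidative genes in fat, differed by -0.49 in set 1 and 0.24 in set 2 (difference between the sets 0.73, SE 0.23, limma adjusted p = 0.206). The acetyltransferase genes Kat2b and Kat2a, the second of which modifies PGC-1 coactivators, differed by -0.13 (SE 0.07) and -0.12 (SE 0.075), with a limma adjusted p = 0.983 for each.

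Fatty acid genes reported as ERR targets had a higher KO mean in set 1 for 15 of 21 measured (23 listed) and a lower KO mean in set 2 for 19 of 21. Their median difference was 0.06 in set 1 and -0.21 in set 2, where all genes had 0.0038 and 0.017. Both KO arrays were below both WT arrays in set 2 for 14 of the 21, beside 19.1% of all genes, and 5 of the 21 were higher in set 1 and lower in set 2 without overlap, beside 5.29% of all genes. In the same arrays all 32 skeletal muscle markers had a lower KO mean in set 2 (median -1.27), and 18 of 19 liver markers a higher KO mean in set 1 (median 2.22). Both KO arrays were below both WT arrays in set 2 for 1 of the 32 muscle markers, beside 19.1% of all genes. Both were above in set 1 for 10 of the 19 liver markers, beside 18.9% of all genes. Among the fatty acid genes Fabp3, a fatty acid binding protein named after its values were seen, differed by 0.67 in set 1 and -1.07 in set 2. The part of muscle and liver RNA in these values was not tested. None of the 21 passed in set 1, in set 2, with the set as a term or in the difference between the sets (0, 0, 0 and 0 by limma), and 7 had an unadjusted p under 0.05 in the last, beside 4566 of the 30723 genes. Cpt2, the inner-membrane carnitine palmitoyltransferase, read 16.55 and 16.38 in KO and 16.07 and 15.41 in WT in set 1, and 15.75 and 15.93 in KO and 16.79 and 16.63 in WT in set 2. Its KO minus WT difference was lower in set 2 than in set 1 (-1.59, SE 0.30, limma adjusted p = 0.0844). Ppara, the nuclear receptor of fatty acid oxidation, differed by -0.38 in set 1 and -1.24 in set 2 (SE 0.52, limma adjusted p = 0.33), with both KO arrays lower in each set. Etfdh, which passes electrons from fatty acid oxidation to ubiquinone, and Acaa2, a thiolase, differed by -0.19 and -0.13 with the set as a term (limma adjusted p = 0.983 for each).

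TCA cycle and respiratory chain genes had medians near those of all genes in both sets. Of 39 measured of 42 listed, 22 had a lower KO mean in set 1 (median -0.02) and 20 in set 2 (median -0.0013), and 0 passed with the set as a term, within a set or between the sets. Sdhc, an anchor subunit of succinate dehydrogenase, read 13.05 and 12.75 in KO and 12.65 and 12.66 in WT in set 1, and 14.03 and 13.88 in KO and 13.79 and 13.40 in WT in set 2. It differed by 0.30 (SE 0.11, limma adjusted p = 0.983), with both KO arrays higher in each set. Idh3g, a subunit of NAD-dependent isocitrate dehydrogenase, differed by 0.47 in set 1 and -0.39 in set 2, a difference between the sets of -0.87 (SE 0.18, limma adjusted p = 0.0908). Cox4i1 and Cox7a1, subunits of cytochrome c oxidase, differed by -0.23 and -0.17 with the set as a term.

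Of 23 measured factors of mitochondrial biogenesis (24 listed), 0 passed with the set as a term, within a set or between the sets. In set 2, 11 had both KO arrays below both WT arrays, beside 19.1% of all genes, and 7 had both above, beside 24% of all genes, with a median difference of -0.12. Polrmt, the mitochondrial RNA polymerase, read 5.01 and 5.16 in KO and 4.82 and 4.90 in WT in set 1, and 5.79 and 5.76 in KO and 6.46 and 6.47 in WT in set 2. Its difference between the sets was -0.92 (SE 0.14, limma adjusted p = 0.0537). Sirt5 and Sirt3, mitochondrial deacylases of which Sirt3 is a known ERR alpha target, differed by -0.76 (SE 0.15, limma adjusted p = 0.112) and -0.60 (SE 0.13, limma adjusted p = 0.127) in set 2 and by 0.17 and 0.20 in set 1.

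Among 24 muscle, creatine, calcium and angiogenic genes reported to follow ERR receptors or Perm1, all measured, 19 had a lower KO mean in set 2 (median -0.11) and 11 in set 1 (median 0.02), with 0 passing. Of all genes, 46.4% had a lower KO mean in set 2 (median 0.017) and 48.8% in set 1 (median 0.0038). Ckmt2, the mitochondrial creatine kinase of muscle, read 3.93 and 5.12 in KO and 4.61 and 4.26 in WT in set 1, and 3.76 and 5.77 in KO and 7.90 and 6.02 in WT in set 2. Its set 2 difference was -2.19 (SE 0.82, limma adjusted p = 0.282). Myh7, the slow muscle myosin, differed by -1.03 there (limma adjusted p = 0.253). In KO replicates 1 and 3 both genes read below the 95th percentile of the olfactory receptor genes (3.97 and 4.76), so those values were not above background. The mean of the 32 muscle markers given with Perm1 was 5.47 and 9.60 in KO and 9.95 and 8.43 in WT in set 2. The genotypes thus overlapped in that mean, with KO replicate 3 the lowest. The part of muscle RNA in the Ckmt2 and Myh7 values was not tested.

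Other nuclear receptors that share response elements or partners with ERR receptors (20 measured of 22 listed) included 2 of the 3 list genes that passed in the difference between the sets, beside 0.498% of all genes. Nr4a3, an immediate early orphan receptor, read 4.48 and 4.72 in KO and 5.94 and 5.77 in WT in set 1, and 9.67 and 9.49 in KO and 6.22 and 7.42 in WT in set 2. Its difference between the sets was 4.02 (SE 0.49, limma adjusted p = 0.0437), and that of its relative Nr4a2, named after its values were seen, was 4.46 (SE 0.64, limma adjusted p = 0.0498). The third was the brown fat proton channel gene Otop1 among the brown adipocyte markers, with a difference between the sets of the opposite sign, -3.41 (SE 0.46, limma adjusted p = 0.0468). Nr4a1, a further relative of Nr4a3 named after its values were seen, differed by -4.41 in set 1 and 4.48 in set 2 and did not pass. Leaving out any 1 of the 8 arrays ended the call of Nr4a2 (limma adjusted p = 0.0738 to 0.169) and of Otop1 (limma adjusted p = 0.0655 to 0.158). Nr4a3 was still called without WT replicate 4 (limma adjusted p = 0.0204) and lost its call without any of the other 7 arrays. Median centring of the arrays ended the calls of Nr4a2 (limma adjusted p = 0.0574) and Otop1 (limma adjusted p = 0.0516) and not that of Nr4a3 (limma adjusted p = 0.0461). The receptors Rxra and Rxrb differed by -0.15 and -0.13 with the set as a term, and Hnf4a, a receptor of liver, by 0.20 (0.38 in set 1, where liver markers were high).

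**Figure D5:**
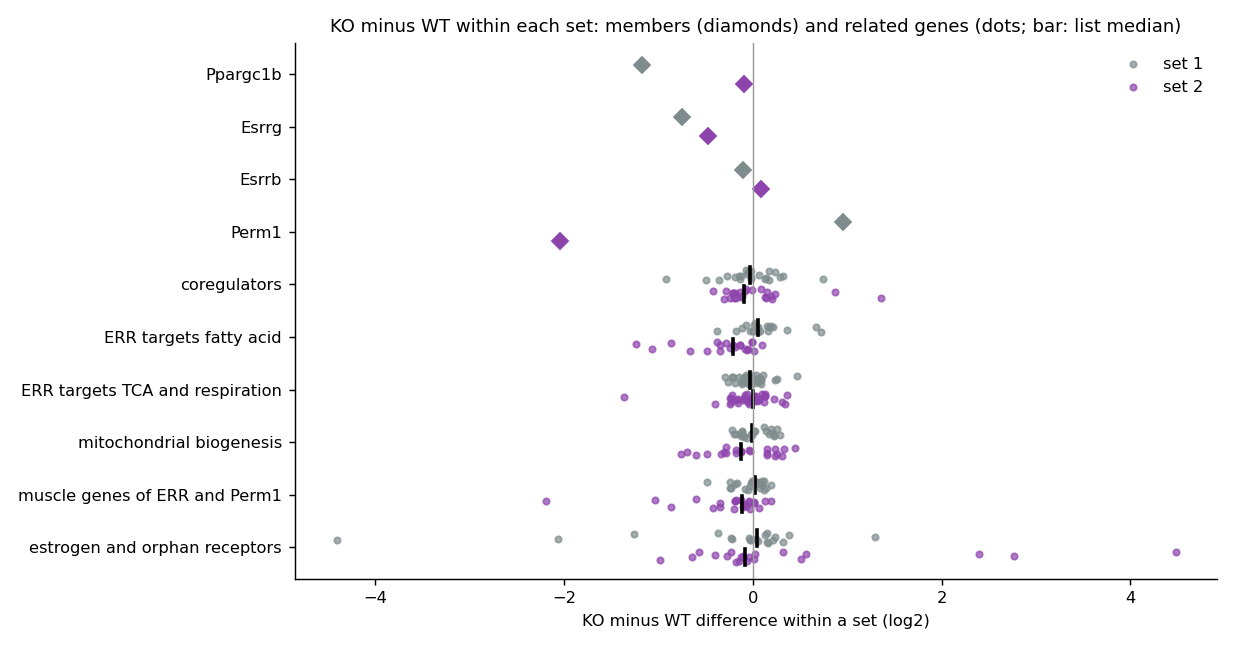
KO minus WT difference within set 1 (grey) and set 2 (purple) on the log2 scale (x axis) for the 4 members (diamonds) and 6 lists of related genes (dots, with black bars at the list median). Perm1 lay at 0.96 in set 1 and -2.04 in set 2, and the median of the fatty acid targets at 0.06 and -0.21.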

How the data were processed

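Per the labels and the submitters' processing notes, the authors computed the deposited log2 values with RMA (Affymetrix Expression Console, analysis of core exons), 1 array per mouse. The genome build and tool versions: not given in the sources used here. Of 72688 probe sets, 6732 were controls, 31266 carried 1 gene, 1484 several and 33206 no name here; 30747 of the 31266 matched a RefSeq table (GRCm38.p6) that was used for names only. The probe set with the highest mean stood for a gene. Differences are KO minus WT. Genes outside the members were tested with limma 3.58.1 (R 4.3.3; lmFit, eBayes) over 30723 genes with the set as a term, and with 4 genotype-by-set means for contrasts within and between the sets, at a Benjamini-Hochberg adjusted p under 0.05; the code was tested on simulated data. The number of arrays limits the precision. P-values measure the spread between these mice.

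Members and lists were chosen with earlier results of these data known. Named list genes were the 3 with the smallest unadjusted p and the 1 with the smallest p between the sets. Genes like a member were sought only among genes with a mean level above the median of all genes. They had a likeness under 0.33 of the member's own deviation. The rule also names Tat, Apoa1, Mybpc1, Zic1, Prdm16, Yy1, Polg2 and Angpt1, none of which passed. Same-numbered KO and WT arrays deviated together from their group means (correlation 0.642, 0.347, 0.357 and 0.549 for replicates 1 to 4). With the set removed these were 0.136, 0.136, -0.118 and -0.118, so pairing beyond the set is not shown.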

Additional observations from a re-analysis of the deposited data

Results flagged for a closer look

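The KO minus WT difference of Perm1 was lower in set 2 than in set 1 (-3.00 on the log2 scale), because both KO arrays were above both WT arrays in set 1 and below them in set 2. This difference was not tested, since Perm1 was chosen with these values known. The difference between the sets passed limma for Otop1 (-3.41), Nr4a3 (4.02) and Nr4a2 (4.46), with each call lost in at least 7 of 8 fits with 1 array left out, and those of Otop1 and Nr4a2 also after median centring. For Lpin1 the highest of the 4 KO values (replicate 4, 16.91) lay apart from the others by 0.869 of the group's range. That group pools both sets, whose value distributions differ, so the gap is not read as a property of that array. The other KO array of its set read 15.49.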

How the results depend on the processing

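The count of genes called with the set as a term was 0 without the set term, with the replicate number as a block, with trended robust variances, after either rescaling and with a filter that kept 17073 genes. It was 0 to 1 with 1 array left out, the 1 without KO replicate 3. No member of a list passed under any of these. Within set 1 the count was 0 to 14 with 1 array left out (14 without KO replicate 2), and within set 2 it was 0 to 10 (10 without KO replicate 3) and 0 after quantile normalization. The count for the difference between the sets, 153, was 0 to 10 with 1 array left out, 82 after median centring and 165 after quantile normalization. With a replicate block the member differences were the same values, since each number holds 1 array of each genotype, and with the set as a term the block changed no call. A pairing of same-numbered arrays beyond the set is not shown. With the replicate block, an alternative added after seeing the data for these comparisons, the count was 0 within set 1, 0 within set 2 and 3 for the difference between the sets, and Otop1, Nr4a3 and Nr4a2 were not called (limma adjusted p = 0.0737, 0.0862 and 0.109).

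With 1 array left out the overall difference ranged from -1.01 to -0.26 for Ppargc1b, -0.82 to -0.40 for Esrrg, -0.68 to -0.40 for Perm1 and -0.05 to 0.04 for Esrrb. Within set 1 it ranged from -1.69 to -0.65, -0.84 to -0.66, 0.68 to 1.24 and -0.16 to -0.05, and within set 2 from -0.85 to 0.66, -0.89 to -0.049, -2.24 to -1.84 and -0.0067 to 0.18 for the same genes. Quantile normalization moved Esrrb in set 1 to -0.20. No member had another probe set of its own, so that alternative gave no value. Signal over background limits Esrrb, and 2 arrays per genotype and set limit every within-set value.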
